A study of Mus musculus with 6 samples.

Results

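The interferon-inducible p200 family (also called the HIN-200 or PYHIN family) was examined in RNA-seq libraries of smooth muscle cells taken from mouse oviducts. Its members were taken from 10 symbols, Mndal, Mnda, Ifi202b, Ifi203, Ifi204, Ifi205, Ifi207, Ifi209, Ifi211 and Aim2, which lie together on chromosome 1. Of these, 9 had a row of their own among the 54232 genes counted. Mnda had none, and RefSeq gives that name as a synonym of Ifi211. Mndal and Ifi205 were put on the list because their counts were much higher in the knockout in these same libraries, so their differences are given below as a description, without a test. The other 7 were listed as members of the family, with earlier results of these data known.

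The libraries came from primary oviductal muscle cells on day 2 of pregnancy, from mated females 8 to 12 weeks old, with 3 libraries from WT mice and 3 from mice with conditional deletion of Pbrm1 (Pbrm1 cKO). The Pbrm1 protein belongs to a chromatin remodeling complex of the SWI/SNF type, and the question was which genes differ in expression without it. Minced oviducts were digested with enzymes, and the filtered cells were kept in dishes for 4 h and, after a change of medium, for 2 h more before RNA was taken. In the study's methods the cKO genotype is Pbrm1 fl/fl with PR IRES-cre, so deletion is limited to cells that express, or once expressed, the progesterone receptor. The labels call the controls WT, while a supplementary legend of the study names floxed (Pbrm1 fl/fl) mice for the same cells. The labels give neither the strain nor whether a library held 1 animal or several, so p-values measure the spread between these libraries.

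Most p200 proteins join a pyrin domain, which binds other pyrin domains, to 1 or more HIN domains, which bind DNA. Type I and type II interferons raise transcription of many of them, and interferon acts on such genes through factors that bind the interferon-stimulated response element. AIM2 is the best known: on binding double-stranded DNA in the cytosol it assembles an inflammasome that activates caspase 1. The mouse genes have multiplied into a cluster of close copies, several of which are so alike that short reads cannot always be assigned to 1 of them.

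To show what these genes have in common near their start sites, the RefSeq promoters (GRCm38.p6, 250 bases before to 50 after each start) were searched on both strands for the interferon-stimulated response element, taken as GAAA, any 2 bases and GAAA again. RefSeq promoters were at hand for 8 of the 9 members, all but Ifi204. Before the start site, 5 of these 8 held the element (Ifi203, Ifi205, Ifi207, Ifi211 and Mndal), as did 2.98% of all 32851 promoters in the table. Aim2, Ifi202b and Ifi209 held no match in this window. The other p200 genes of the cluster, Ifi206, Ifi208, Ifi213 and Ifi214, each held one as well. The stretches around the element are shown 5′ to 3′ on the strand of the gene, with the 10 matching bases in capitals, because they show how closely the copies resemble each other there.
Ifi203: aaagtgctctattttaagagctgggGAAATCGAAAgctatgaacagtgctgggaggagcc
Ifi207: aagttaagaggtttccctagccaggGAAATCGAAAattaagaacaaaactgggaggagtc
Ifi211: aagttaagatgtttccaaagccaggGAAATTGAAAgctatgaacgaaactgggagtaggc
Ifi205: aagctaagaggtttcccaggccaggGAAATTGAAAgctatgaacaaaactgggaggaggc
Ifi213: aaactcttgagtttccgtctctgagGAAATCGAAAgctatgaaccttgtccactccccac
Mndal: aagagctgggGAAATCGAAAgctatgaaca

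These stretches lie on the minus strand at chr1:173942493-173942552 (Ifi203), chr1:173741816-173741875 (Ifi207), chr1:173913049-173913108 (Ifi211), chr1:174031855-174031914 (Ifi205) and chr1:173599311-173599370 (Ifi213), none of them in an annotated exon. The Ifi203 stretch precedes the downstream of 2 RefSeq starts, and the upstream start held no match. The Mndal match, at chr1:173880214-173880223, stands before 1 of 2 RefSeq starts but within an exon of another annotated Mndal transcript. The 30 bases printed for Mndal are the same as those around the Ifi203 match. A second match, TTTCTCTTTC on the opposite strand, precedes the other Mndal start. Ifi207 and Ifi203 shared the letters GAAATCGAAA with Mndal and with all of the other p200 genes of the cluster, while Ifi211 and Ifi205 had GAAATTGAAA. On the strand of the gene the element began 35 to 41 bases before the start of Ifi203, Ifi207, Ifi211 and Mndal but 134 bases before that of Ifi205. The gamma-activated site (TTCNNNGAA), searched in the same way, was found before the start of Ifi202b and of no other member, beside 7.02% of all promoters. A match to such letters is a description of the sequence and says nothing of binding.

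**Figure D1:**
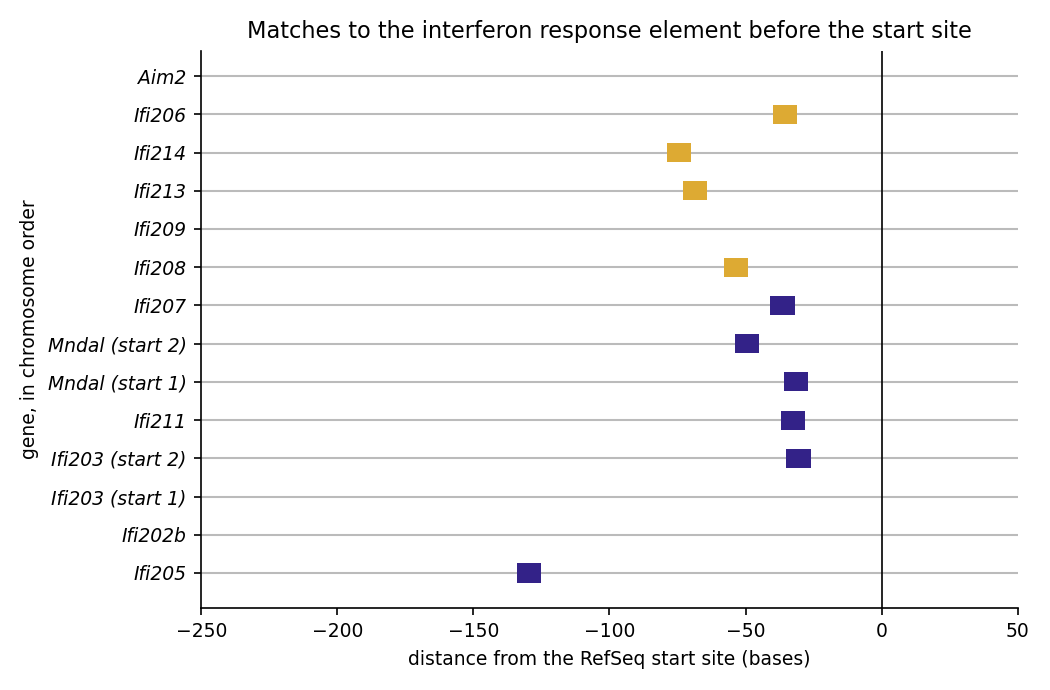
Position of matches to the interferon-stimulated response element before the RefSeq start site, with distance from the start in bases on the horizontal axis and 1 line per promoter in chromosome order. Blue boxes are matches in members and yellow boxes those in other p200 genes of the cluster; every match but that of Ifi205 lies within 79 bases of the start.

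The likeness extends to the coding sequence, which bears on how reads could be divided. Over the aligned coding bases, Ifi204 and Ifi211 were 96.3% identical, Ifi205 and Ifi211 94.7%, and Ifi204 and Ifi205 91.4%. Mndal was 86.8% identical to Ifi205 and 86.6% to Ifi211. A coding stretch of 60 bases shows how few bases separate the closest members, with capitals at the positions where they differ.
Ifi211: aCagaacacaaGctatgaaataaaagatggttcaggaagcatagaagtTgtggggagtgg
Ifi204: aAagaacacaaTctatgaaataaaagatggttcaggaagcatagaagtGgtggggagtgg
Ifi205: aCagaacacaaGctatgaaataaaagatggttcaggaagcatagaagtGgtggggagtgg

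Counted from the 5′ end of the stretch, Ifi204 differed from Ifi211 by C2A, G12T and T49G, and Ifi205 by T49G alone. The stretches are in coding exons on the minus strand, at chr1:173899459-173899518 (Ifi211), chr1:173752825-173752884 (Ifi204) and chr1:174015074-174015133 (Ifi205) of GRCm38. Of all 50-base words in the longest transcript of each member, 18.0% also occurred in a transcript of another gene. The share was 72.9% for Ifi211, mostly with Ifi205 (44.6% of its words) and Ifi204 (30.0%). It was 35.1% for Ifi209, nearly all with Ifi214, 30.2% for Ifi204, 27.2% for Mndal, 10.7% for Ifi203, 7.17% for Ifi207 and 0.789% for Aim2. No 50-base word of Ifi202b was shared. For Ifi205 the share was 0.186% in its longest transcript, which retains an intron, but 18.6% over all its transcripts. The counting used by the authors leaves out reads that map to several places, so the levels of Ifi211, Ifi209, Ifi204, Ifi205 and Mndal are uncertain, whereas those of Ifi202b, Aim2, Ifi207 and Ifi203 rest mostly on sequence of their own. Mndal also shared 37 exon bases with Ifi203 on the same strand, and its annotated bounds enclose Ifi211.

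Libraries held between 15390818 and 18947947 counts, and 3 counts corresponded to 0.158 to 0.195 CPM, the unit used below for a count scaled to the size of its library. Pbrm1 was at 170, 183 and 172 CPM in WT and at 43.5, 50.7 and 42.7 CPM in cKO, 26.0% of the WT mean. Of 15376 genes tested with edgeR's quasi-likelihood test, 6723 (43.7%) passed an adjusted p of 0.05, 3373 higher in cKO (21.9%) and 3350 lower (21.8%). With so many genes past the threshold, the size of a difference says more about a p200 gene than its call. The smooth muscle markers Acta2, Myh11, Tagln, Cnn1, Smtn, Des, Myl9 and Lmod1 summed to 3663 to 3738 CPM in WT and 4585 to 5134 CPM in cKO.

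All 9 members had counts in all 6 libraries, and 8 of them were at higher levels in the cKO libraries. The exception was Ifi202b, which fell. Among the 7 members other than Mndal and Ifi205, 5 passed the test as higher (Ifi203, Ifi204, Ifi207, Ifi209 and Ifi211). Ifi202b passed as lower, and Aim2 did not pass. Each of those 5 passed with a log2 fold change over 1, as did 3.62% of all genes tested. Over all 7 of these members the median log2 fold change was 1.73, beside 0.00 over all genes tested. The WT and cKO values did not overlap for any of the 9 members, which was also true of 53.5% of all genes tested (26.6% with cKO higher). Because these are bulk libraries, more or fewer cells of a type and more or less RNA per cell cannot be told apart in any of these values.

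**Figure D2:**
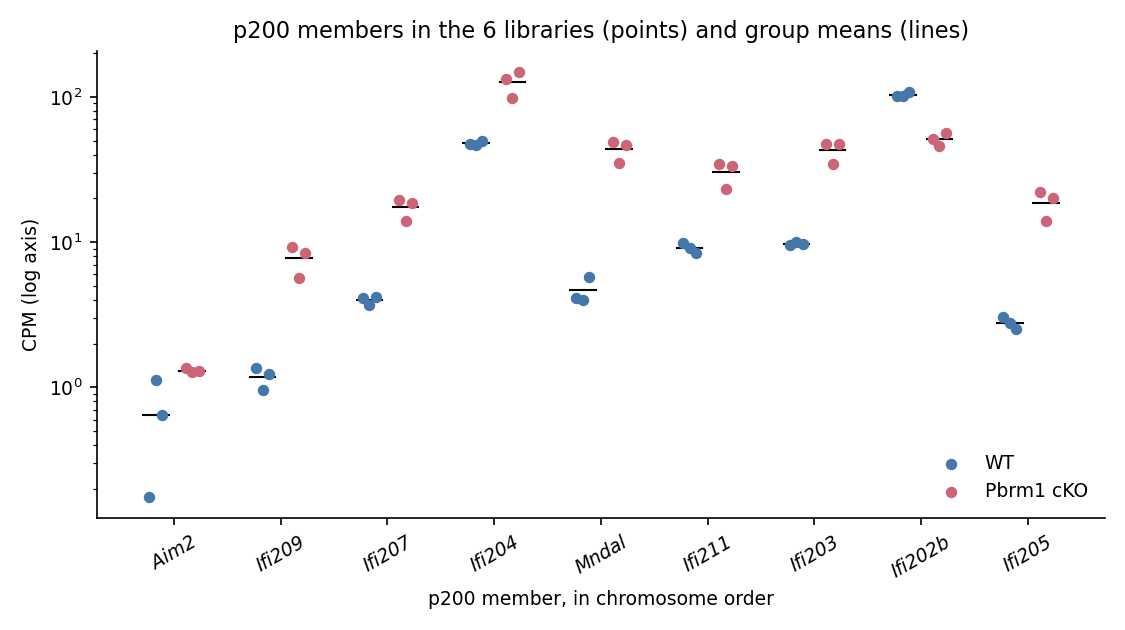
CPM of each member (log axis) in the 3 WT and 3 cKO libraries (points), with a line at each group mean, in chromosome order. The cKO points lie above the WT points for 8 members and below them for Ifi202b, and cKO replicate 2 is the lowest cKO library for each of the 9.

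Mndal (ENSMUSG00000090272.8, chr1:173849126-173942491, minus strand), named for its likeness to the human myeloid nuclear differentiation antigen, reached 4.14, 4.01 and 5.80 CPM in WT against 49.0, 34.8 and 46.7 CPM in cKO. The lowest cKO library was several times the highest WT library. The means were 4.65 ± 0.997 CPM and 43.5 ± 7.62 CPM (SD, n = 3), a log2 fold change of 3.23 (SE 0.15), or 9.36-fold. Among all genes tested, 11 had a larger fold change in this direction.

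Ifi205 (ENSMUSG00000054203.7, chr1:174011998-174031810, minus strand), at the far end of the cluster, was at 3.07, 2.78 and 2.52 CPM in WT and at 22.2, 13.9 and 20.1 CPM in cKO. Its log2 fold change was 2.74 (SE 0.18), and 24 genes tested had a larger one. Leaving out cKO replicate 2, its lowest cKO library, gave 2.92 for Ifi205 and 3.37 for Mndal.

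Aim2 and Ifi204 are the members best known for roles in DNA sensing. Ifi204 (ENSMUSG00000073489.6, chr1:173747293-173766943, minus strand), which is related to human IFI16 and has been tied to DNA sensing and to the retinoblastoma protein, stood at 47.7, 46.4 and 49.8 CPM in WT and at 133, 97.6 and 148 CPM in cKO. All cKO libraries were well above all WT libraries, and the difference was 1.39 on the log2 scale (SE 0.11, edgeR adjusted p = 5.45e-07). Aim2 (ENSMUSG00000037860.15, chr1:173350879-173466040, plus strand) had few reads, 3, 21 and 11 counts in WT and 24, 24 and 20 in cKO, or 0.177, 1.12 and 0.644 CPM against 1.35, 1.27 and 1.29 CPM. The lowest WT library was at the floor of 3 counts, and the highest WT library was close to the cKO values. Its log2 fold change of 0.97 (SE 0.40) did not pass (edgeR adjusted p = 0.0668). Without WT replicate 2 the log2 fold change was 1.64 with an edgeR adjusted p of 0.0113, and Aim2 also passed with limma-voom and with no filter on low counts. Over all alternatives its adjusted p ranged from 0.0113 to 0.220.

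Ifi203, Ifi207 and Ifi209 all rose. Ifi203 (ENSMUSG00000039997.16, chr1:173920407-173942672, minus strand) was at 9.51, 9.94 and 9.78 CPM in WT and at 47.7, 34.7 and 47.0 CPM in cKO (log2 fold change 2.14, SE 0.12, edgeR adjusted p = 1.52e-08). Ifi207 (ENSMUSG00000073490.11, chr1:173723427-173741747, minus strand) was at 4.14, 3.69 and 4.16 CPM in WT and at 19.3, 14.1 and 18.5 CPM in cKO (2.11 on the log2 scale, SE 0.14, edgeR adjusted p = 9.23e-08). In both genes the 3 WT libraries lay close together, and cKO replicate 2 stood below the other cKO libraries. Ifi209 (ENSMUSG00000043263.13, chr1:173630917-173647928, plus strand) was at 1.36, 0.962 and 1.23 CPM in WT and 9.28, 5.62 and 8.36 CPM in cKO, and its log2 fold change of 2.71 (SE 0.23, edgeR adjusted p = 8.04e-07) was near that of Ifi205. Its closest copy by sequence, Ifi214, stayed at 4, 4 and 9 counts in WT and 11, 6 and 6 in cKO, too few to be tested.

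Ifi211 (ENSMUSG00000026536.9, chr1:173896345-173913046, minus strand), the gene to which RefSeq assigns the name Mnda, was at 9.87, 9.09 and 8.43 CPM in WT and at 34.5, 23.3 and 33.6 CPM in cKO. It rose by 1.73 on the log2 scale (SE 0.14, edgeR adjusted p = 4.27e-07), the groups again being far apart. This value rests on the sequence that sets Ifi211 apart from Ifi205 and Ifi204, since most of its 50-base words are shared.

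Ifi202b (ENSMUSG00000026535.9, chr1:173962568-173982744, minus strand) went the other way. Its protein, p202, has HIN domains but no pyrin domain and is known to hold DNA away from AIM2. It was at 102, 102 and 107 CPM in WT and at 51.3, 46.0 and 56.4 CPM in cKO, so that every cKO library was at 0.445 to 0.545 of the WT mean. Its fall measured -1.02 on the log2 scale (SE 0.066, edgeR adjusted p = 6.94e-08), lower than that of all but 2.79% of the genes tested. It kept its direction and its call in all 13 alternatives, with log2 fold changes between -1.09 and -0.94. Ifi202b is also the member with no 50-base word in an annotated transcript of any other gene. With words of 36 bases it shared 9 (0.542%), with the gene model Gm18445. The search covered annotated transcripts only, and whether reads from other copies enter the Ifi202b value was not tested. The expression of Ifi202b and the number of its copies are known to vary between laboratory strains, and the labels give no strain for either group. The study's methods give the Pgr cre line, carried by the cKO group, a designation that combines strains. They give none for the Pbrm1 floxed line. Whether strain background differed between the groups, at Ifi202b or at other genes of the cluster, was not tested.

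Per kilobase of exon the order of the members changed between the groups. In WT, Ifi202b was highest at 61.0 ± 2.00 RPKM (CPM per kilobase of counted exon; SD, n = 3), followed by Ifi204 at 13.5 ± 0.491 RPKM and Ifi211 at 5.11 ± 0.403 RPKM. Ifi203 (1.45 RPKM), Mndal (1.28 RPKM) and Ifi207 (1.17 RPKM) followed, each overlapping the next in its library values. Ifi205 (0.668 RPKM), Ifi209 (0.334 RPKM) and Aim2 (0.185 RPKM) were lowest, the last pair overlapping. In cKO, Ifi204 came first at 35.4 ± 7.28 RPKM and Ifi202b second at 30.2 ± 3.06 RPKM, with overlapping library values. Ifi211 at 17.1 ± 3.47 RPKM and Mndal at 12.0 ± 2.10 RPKM came next and overlapped each other. Ifi203, Ifi207 and Ifi205 lay between 6.43 and 4.48 RPKM, each overlapping the next, above Ifi209 at 2.19 RPKM and Aim2 at 0.372 RPKM. Exon lengths pool all annotated transcripts of a gene, retained introns included, so an RPKM is lowered where only part of that length is transcribed.

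As a share of the summed RPKM of the 9 members, Ifi202b made up 71.5%, 72.2% and 72.4% in the WT libraries and 24.9%, 29.6% and 26.3% in the cKO libraries. Ifi204 went from a mean of 15.9% to 31.2%, Ifi211 from 6.05% to 15.0% and Mndal from 1.51% to 10.6%. Summed over all members, so that it did not matter to which of them a counted read was given, the family was at 182, 180 and 190 CPM in WT and at 367, 271 and 380 CPM in cKO. The sum holds neither reads left out for mapping to several places nor those given to copies outside the list, such as Ifi214. The ratio of the group means was 1.85. Without Ifi202b it was 3.60, with 80.1 ± 2.21 CPM in WT and 288 ± 54.8 CPM in cKO, and without Ifi204 it was 1.57. These sums include Mndal and Ifi205, which were chosen for their rise. Without that pair the ratio was 1.57, from 176 ± 4.68 CPM to 277 ± 48.2 CPM, and without Ifi202b as well it was 3.11.

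**Figure D3:**
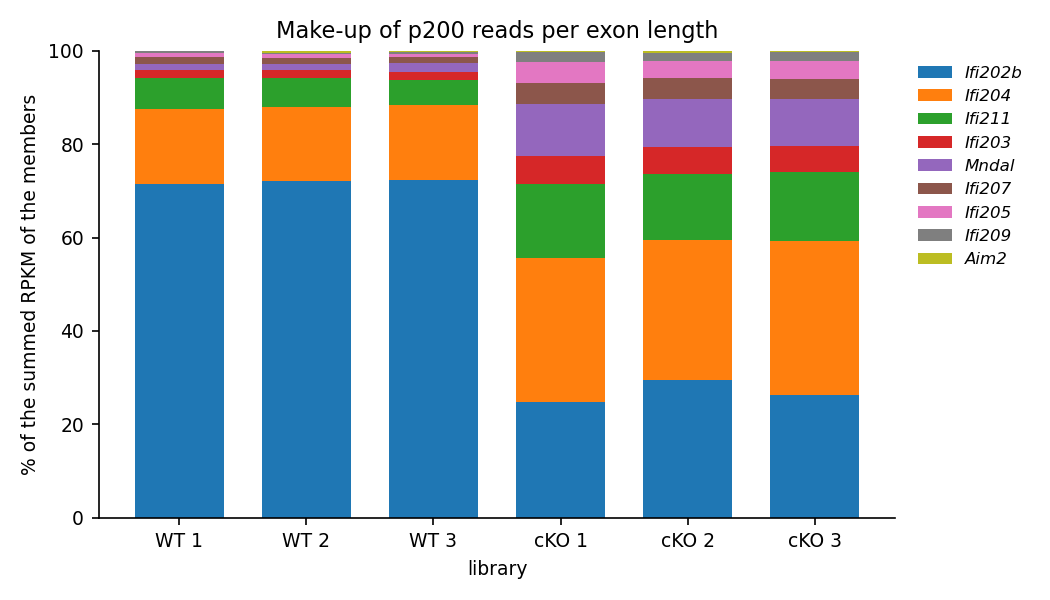
Share of each member in the summed RPKM of the 9 members (vertical axis, percent), with 1 stacked bar per library. The Ifi202b share is 71.5% to 72.4% in the WT bars and 24.9% to 29.6% in the cKO bars.

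The neighbours of the members in the cluster were examined next. The span from the first base of Aim2 to the last of Ifi205 is chr1:173350879-174031810 on GRCm38, and 13 other annotated genes overlap it, of which 6 had enough counts to be tested. The p200 genes Ifi206 and Ifi213 both rose. Ifi206 had 3, 3 and 2 counts in WT and 31, 26 and 28 in cKO (log2 fold change 3.37, SE 0.37, edgeR adjusted p = 8.59e-06). Ifi213 had 4, 2 and 1 counts in WT and 41, 28 and 35 in cKO (3.84 on the log2 scale, SE 0.42, edgeR adjusted p = 8.61e-06). In both genes the WT counts were near or below the floor, so the size of the fold is poorly fixed. Without WT replicate 1 the value for Ifi213 was 4.46. Ifi208, with 1, 0 and 0 counts in WT and 15, 9 and 9 in cKO, was too scarce to be tested.

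Other genes of the span fell or did not differ detectably. The gene models Gm7897 and Gm18445 fell: Gm7897 had 35, 57 and 48 counts in WT and 5, 3 and 4 in cKO (log2 fold change -3.49, SE 0.33, edgeR adjusted p = 2.15e-06), and Gm18445 had 20, 13 and 29 counts in WT and 2, 0 and 1 in cKO (-4.20, SE 0.64, edgeR adjusted p = 0.000143). Gm18445 lies between Ifi202b and Ifi205 and Gm7897 between Ifi204 and Mndal. The cKO counts of Gm18445 were below the floor of 3, and its value moved to -5.03 without cKO replicate 1 and to -3.60 without cKO replicate 2. The pseudogene Ifi203-ps, between Ifi204 and Gm7897, had 41, 30 and 26 counts in WT and 51, 33 and 30 in cKO, which did not pass the test (log2 fold change 0.24, SE 0.26, edgeR adjusted p = 0.471). Cadm3, a cell adhesion gene that overlaps the first bases of the span, fell (log2 fold change -1.08, SE 0.16, edgeR adjusted p = 0.000117). The remaining 5 genes of the span had at most 1 count in any library.

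Within 1 Mb outside the span, 59 genes are annotated and 11 were tested, of which 3 passed as higher and 4 as lower. Over all genes tested, 21.9% passed as higher and 21.8% as lower. Slamf8, a surface receptor of myeloid cells, rose by 3.04 on the log2 scale, Fmn2 by 1.40 and Dusp23 by 0.63. Slamf8 had only 6, 7 and 2 counts in WT, beside 52, 32 and 40 in cKO. The size of its fold is therefore poorly fixed, at 2.68 to 3.30 on the log2 scale over the alternatives. Among those that fell, Igsf9 fell by 1.13, Pigm by 0.29 and Tagln2 by 0.21. The nearest tested genes were Ackr1 on the Aim2 side (log2 fold change 0.63, edgeR adjusted p = 0.252) and Fmn2 on the Ifi205 side. The median over the 11 genes was 0.08 on the log2 scale, and that of the 6 other tested genes inside the span was -0.42. For the 7 members other than Mndal and Ifi205 it was 1.73, but these too were listed with earlier results of these data known.

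**Figure D4:**
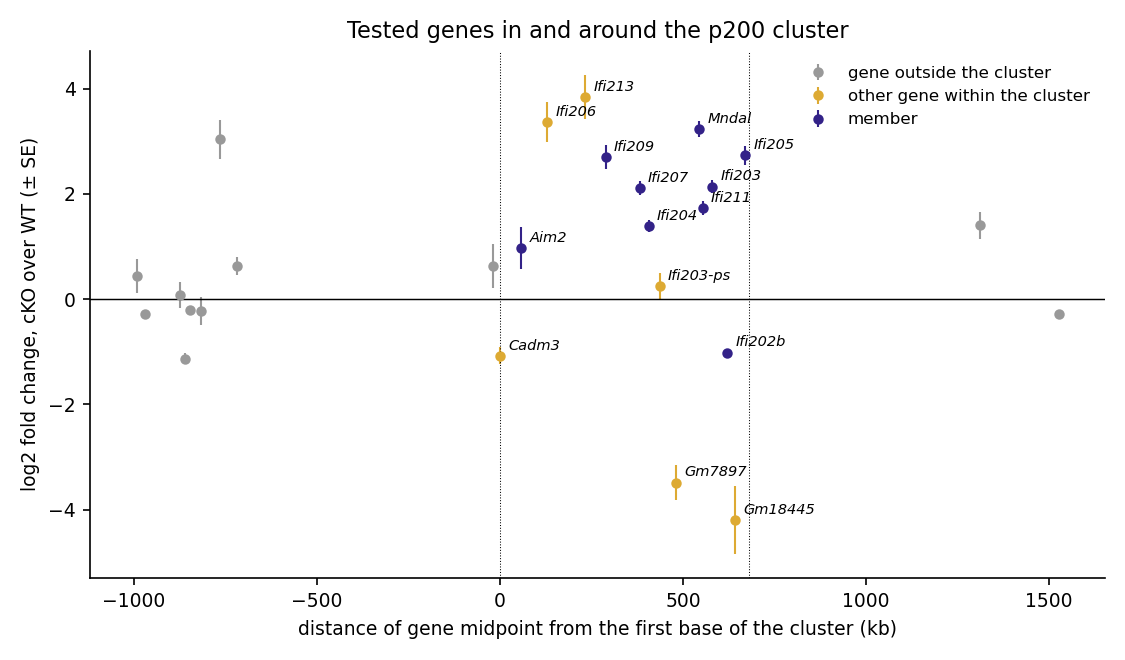
Log2 fold change (cKO over WT, ± SE) of every tested gene in the p200 cluster and within 1 Mb of it, by distance of its midpoint from the first base of the cluster (kb); dotted lines mark the ends of the cluster. Members (blue) and other cluster genes (yellow) range from 3.84 to -4.20, with Ifi202b, Cadm3, Gm7897 and Gm18445 below 0, and genes outside are grey.

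To place the family among interferon genes, lists of the pathway were read in the same way. These lists were chosen with earlier results of these data known. Their counts stand beside 21.9% called higher and 21.8% lower over all genes tested. Of 16 genes of interferon signaling, 15 were tested, 12 were higher and none lower, and their median on the log2 scale was 0.51. The larger differences were those of Usp18, which limits type I interferon signaling (2.15), Stat2 (1.57) and Irf9 (1.29), whose products are parts of the factor that binds the response element, and the transcription factor gene Irf7 (1.17). Ifnar1 and Ifnar2, the receptor chains, rose by 0.33 and 0.35. The interferon gene Ifnb1 itself stayed at 1 to 4 counts in every library (0.118, 0.160 and 0.176 CPM in WT and 0.056, 0.212 and 0.064 CPM in cKO) and was not tested.

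Of 30 other interferon-stimulated genes, all were tested, 29 were higher and none lower, beside 21.9% higher and 21.8% lower over all genes tested. The median of the 30 on the log2 scale was 1.42. Examples are Isg15, a ubiquitin-like modifier (2.64), the guanylate-binding protein gene Gbp3 (2.44), Xaf1 (2.33), the nucleic acid sensor Zbp1 (2.10) and Ifit3b (2.08). Isg15 was at 7.27, 8.13 and 5.91 CPM in WT and at 55.8, 30.2 and 48.0 CPM in cKO. The exception was Rsad2, at 12.5, 9.04 and 11.3 CPM in WT and 17.0, 10.1 and 15.8 CPM in cKO. The 7 members not chosen by their values had a median of 1.73, which was not tested against these lists.

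Within the cKO group, replicate 2 was the lowest of the 3 libraries for each of the 8 members that were higher in cKO. This was common: it was the lowest for 58.2% of all genes called higher. It was also the lowest for 29 of the 29 interferon-stimulated genes that rose, 9 of 12 interferon signaling genes, 6 of 6 smooth muscle markers, 5 of 6 fibroblast markers, 4 of 5 epithelial markers and 3 of 11 leukocyte markers. Relative to the WT mean, the 8 members other than Ifi202b summed to 3.95, 2.81 and 4.04 in cKO replicates 1, 2 and 3. Without Mndal and Ifi205, which were chosen for their rise, the other 6 summed to 3.37, 2.43 and 3.54, and the 30 interferon-stimulated genes to 2.68, 1.88 and 2.72. Ifi202b was also lowest in replicate 2, at 0.495, 0.445 and 0.545. Replicate 2 thus had the smallest rise of the summed members and the largest fall of Ifi202b. For Aim2 the cKO libraries hardly differed (1.35, 1.27 and 1.29 CPM).

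**Figure D5:**
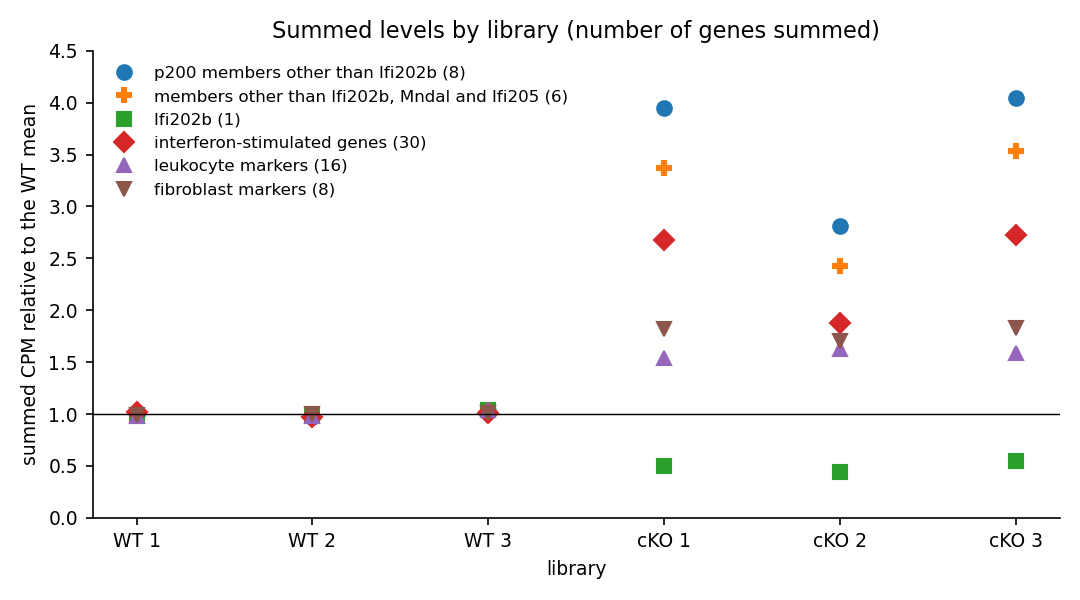
Summed CPM relative to the WT mean (vertical axis) in each library for the 8 members other than Ifi202b, the same without Mndal and Ifi205 (6 genes), Ifi202b, 30 interferon-stimulated genes, 16 leukocyte markers and 8 fibroblast markers. The members and the interferon-stimulated genes are lowest of the cKO libraries in replicate 2 (2.81 and 1.88), and leukocyte markers stand at 1.54, 1.63 and 1.59.

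Several p200 genes are expressed in myeloid cells, and most of the leukocyte markers tested were also higher in cKO. Summed over the list, the leukocyte markers were at 1246, 1320 and 1288 CPM in cKO replicates 1, 2 and 3. Of 16 leukocyte markers, 13 were tested, 11 were higher and none lower. This count and the marker counts below stand beside 21.9% called higher and 21.8% lower over all genes tested. The median of the leukocyte markers on the log2 scale was 0.76. Their summed level was 794 to 843 CPM in WT and 1246 to 1320 CPM in cKO. Among those that rose, the macrophage complement genes C1qb (1.86), C1qc (1.49) and C1qa (1.25), the Fc receptor gene Fcgr1 (1.43) and the common leukocyte antigen Ptprc (1.02) differed most. The natural killer cell marker Ncr1 was at 3 counts or fewer in every library. Of 8 fibroblast markers 6 were higher and 1 lower, with summed levels of 1273 to 1291 CPM in WT and 2183 to 2345 CPM in cKO. Of 5 endothelial markers 1 was higher and 1 lower. Their summed level was 277 to 297 CPM in WT and 213 to 228 CPM in cKO. Of 6 epithelial markers 5 were higher, with a median of 0.18 on the log2 scale. They summed to 743 to 812 CPM in WT and 881 to 986 CPM in cKO. Of the 8 smooth muscle markers 6 were higher and 1 lower. The part of cell composition in the p200 values was not tested.

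Genes that act with the family were read in the same way, beside the 43.7% of all genes tested that were called. Of 15 genes of cytosolic DNA sensing and the inflammasome, 14 were tested, 6 were higher and none lower, and their median on the log2 scale was 0.32. The 5 with the largest change were Nlrp1b (1.78), Il1b (1.52), Mefv (1.10), Pycard (0.72) and Tmem173 (0.31). Pycard encodes ASC, the adaptor through which AIM2 reaches caspase 1, and was at 2.78, 3.10 and 3.69 CPM in WT and 5.62, 4.67 and 5.53 CPM in cKO. Tmem173 encodes STING, which relays the signal of cytosolic DNA to interferon genes. Casp1 itself did not pass (log2 fold change 0.39, SE 0.16), and Trex1 had 0 counts in every library. Reads that overlap several genes were not counted, so this does not show that Trex1 RNA was absent. Of 15 genes whose products have been described as partners of p200 proteins, 6 were higher and 4 lower, with a median of -0.03. Fos (0.85), Rbl2 (0.62), related to the retinoblastoma protein, and Id3 (0.58) rose, while Runx2 fell by 0.72 and E2f1 by 0.43.

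Last, the genes whose values over the 6 libraries were most like those of Mndal and of Ifi205 were found among 13961 genes. These had a mean of at least 1 CPM. The measure was the root mean square difference of log2 CPM about the WT mean, with 0.5 CPM added before the logarithm. Those nearest to Mndal were Gdf3 (0.17), Lgi2 (0.24) and Armh4 (0.34), with Ifi205 seventh (0.46). Those nearest to Ifi205 were Scn7a (0.10), Isg15 (0.12) and Trim12a (0.13), with Ifi209 ninth (0.21) and Ifi203 in place 18 (0.33). Gdf3, a growth factor of the TGF-beta family, had 7, 5 and 7 counts in WT and 115, 100 and 119 in cKO. Its log2 fold change of 4.13 was larger than that of Mndal (3.23). The added 0.5 CPM, above the Gdf3 WT mean of 0.364 CPM, narrows this difference. Trim12a was at 1.12, 0.802 and 1.05 CPM in WT and 9.33, 5.68 and 7.91 CPM in cKO. The place of Ifi202b in either order was near the end, 13727 of 13961 for Mndal.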

How the data were processed

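The authors deposited 1 table of raw read counts per gene for the 6 libraries, with counted exon Length. Per the file headers, reads were counted with featureCounts 1.6.4 (reverse-stranded, defaults, so reads with several alignments or several genes are left out) against GENCODE M18. The submitters' processing notes also name cutadapt, HISAT2 and GRCm38.p5. The study gives single-end reads of 50 bases for its uterine libraries, made with another kit. None is given for these libraries in the sources used here. Symbols came from GENCODE M21 (99.7% of rows), in which the bounds of all p200 genes are the same.

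R 4.3.3 was used. The two-sided quasi-likelihood test of edgeR 4.0.16 was run on the counts after filterByExpr and TMM normalization, with Benjamini-Hochberg adjustment over all 15376 genes tested and a threshold of 0.05. The test was also run on simulated counts, in which far fewer genes were changed than were called here. CPM and RPKM use TMM factors. Members and lists were chosen with earlier results of these data known. Genes named are the members, Pbrm1, other genes of the cluster, tested neighbours past the threshold, up to 5 genes a list with the largest change (some genes the rule covers are not reported here), and the 3 nearest in profile to Mndal and to Ifi205. Ifnar1, Ifnar2, Ifnb1, Rsad2, Casp1 and Trex1 were named after their values were seen. Libraries of a group differed beyond sampling noise (chi-square per gene 1.32 to 1.60). DESeq2 1.42.0, limma-voom (limma 3.58.1), other scalings and filters, a replicate block and leaving out each library were alternatives. Counting limits cover counting error only, since reads carried no molecular identifiers.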

Additional observations from a re-analysis of the deposited data

How the results depend on the processing

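Among values of single genes that were tested, 263 kept their direction and side of the threshold, 3 came to pass it and 1 reversed. The 26 values of Mndal and Ifi205, untested, kept their direction. Aim2 passed with limma-voom (log2 fold change 1.27, adjusted p = 0.0370), with no filter (0.96, edgeR adjusted p = 0.0158) and without WT replicate 2 (1.64). Ifi203-ps, never past the threshold, reversed to -0.00595 without cKO replicate 1, and its values with 1 library left out reached 0.48. Leaving out each library in turn, 6 to 7 of the 7 members tested passed, and 26 to 30 interferon-stimulated genes, 12 to 13 genes of the cluster and its flanks, 2 to 5 epithelial markers (2 without WT replicate 1, 3 without cKO replicate 1 or 3) and 5532 to 7054 genes in all. Of cluster and flanking genes, 12 passed in the reported fit and 7 of 11 when at least 10 counts were asked of every library. That filter leaves out Ifi206, Ifi213, Gm7897, Gm18445 and Slamf8. The summed ratio was 3.60 without Ifi202b and 3.11 without Mndal and Ifi205 as well, both chosen after seeing the data. The shared 50-base words (18.0%) became 23.6% at 36 bases and 12.2% at 75. Over all transcripts of each member, also chosen later, the share was again 18.0%. With the replicate number as a block, 6 of the 7 members passed and 6908 genes in all. The labels do not say whether same-numbered libraries were paired. Their deviations correlated at -0.024, 0.035 and 0.093, which cannot exclude pairing, and the block changed no call of a member. DESeq2 called 5307 genes.

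Depth limits Aim2, Ifi206, Ifi208, Ifi213, Ifi214 and Gm18445, whose counts were below 50 in every library. With 3 libraries a group, the spread of single genes is poorly known and the test borrows it from genes of like level.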
